A study of Mus musculus with 65 samples.

Results

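Enhancers that lie at some distance from genes, but within reach of one, were followed on newly replicated DNA in mouse embryonic stem cells. The 5146 enhancers described here were those of the study's stem cell enhancer regions whose midpoint was more than 2.5 kb and at most 50 kb from the midpoint of the nearest annotated transcription start site (TSS) region. They made up 58.5% of the 8794 enhancers in all, beside 2902 that were farther than 50 kb and 746 that were within 2.5 kb. Enhancers in chains of 3 or more close neighbours were to be left out, but no 2 enhancer midpoints were closer than 13067 bp, more than the gap allowed in a chain, so that 0 enhancers were in one and the condition removed none. The rule used positions only and no measured signal, but the choice was made with earlier results of these data known.

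The cells were of the line E14TG2a (strain 129/Ola, passages 5-28), a feeder-independent male line, kept on gelatin in serum with LIF. Cells received 20 uM of the thymidine analogue EdU for 10 min and were collected at once (nascent) or after a chase in 10 uM thymidine, and untreated cells served as steady state. In the inhibitor experiment the cells spent 2 h in DMSO (control), DRB or triptolide ahead of the EdU pulse, and EdU-labelled and unbound DNA were collected at the nascent stage and after a 2 h chase, with 3 libraries in each of the 12 groups. The unbound DNA is what the streptavidin beads left in the supernatant, mostly DNA that had not replicated during the pulse. A spike-in of 100 EdU-labelled Drosophila S2 cells went into 4 further libraries, 2 nascent and 2 after 2 h. Whether an inhibitor was kept in the medium through the chase, and at which dose, was not given in the sources used here, and the labels do not say whether replicates came from separate cultures, so p-values measure only the spread between these libraries.

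Enhancers are stretches of regulatory DNA where transcription factors bind between nucleosomes and raise the output of promoters that can be many kilobases away. Passage of the replication fork removes these factors, and old and new histones are laid down behind it, so that open sites have to be cleared again on both daughter strands. In repli-ATAC-seq the Tn5 transposase cuts open chromatin and the cut fragments that carry EdU are then captured, so the signal reports access on newly made DNA. DRB blocks CDK9, the kinase that releases paused RNA polymerase II, and triptolide acts on XPB, the part of TFIIH that opens promoter DNA at initiation. Active enhancers are themselves transcribed by RNA polymerase II, whose largest subunit carries phosphorylated serine 5 (S5P) in its repeats soon after initiation.

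The enhancers had a median distance of 16.3 kb to the nearest TSS, with quartiles of 8.12 and 29.0 kb. The nearest TSS belonged to a protein-coding gene for 2968 of them, to a named noncoding gene for 919, and had no name for 1259. Inside the span of a coding gene lay 2599 enhancers and between such genes lay 2547. Within 50 kb of a named TSS were 4450 enhancers near 3885 genes, and 3381 of these genes had a single enhancer, 58 had 3 or more and none had over 4. The X chromosome held 142. Below, an enhancer is called by the nearest named gene and its distance, or by coordinates (mm10, central 1 kb) where that gene is over 50 kb away, and a name says nothing of which gene it acts on.

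A small number of these enhancers hold an annotated start of their own, and only for these could sequence be shown. The windows lie upstream of RefSeq starts and do not stand for the other enhancers. In 54 of the 5146 the central 1 kb held the whole 250 bases before a RefSeq transcript start (GRCm38.p6, the patch release of the build mm10), although the nearest TSS region of the study was over 2.5 kb away. Of these 54 enhancers 21 held a peak of the nascent list in their central 1 kb and 3 an S5P peak, which need not lie on the upstream window itself. Those 3 (1700019D03Rik, Set and Srsf11) are shown first, then the window of the enhancer with the highest signal in unbound DNA (Gm31391), the Dhx32 window, whose enhancer had lower signal with triptolide at both times, and AW047730, whose enhancer was higher in nascent DNA with triptolide. Each line runs 5′ to 3′ on the strand of the gene, and capitals mark the searched motifs found on either strand.
1700019D03Rik: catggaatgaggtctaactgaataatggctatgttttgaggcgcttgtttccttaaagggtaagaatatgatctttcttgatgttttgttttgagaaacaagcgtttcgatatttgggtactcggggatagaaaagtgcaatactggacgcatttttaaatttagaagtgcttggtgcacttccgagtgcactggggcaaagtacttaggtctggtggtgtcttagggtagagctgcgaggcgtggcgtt
Set: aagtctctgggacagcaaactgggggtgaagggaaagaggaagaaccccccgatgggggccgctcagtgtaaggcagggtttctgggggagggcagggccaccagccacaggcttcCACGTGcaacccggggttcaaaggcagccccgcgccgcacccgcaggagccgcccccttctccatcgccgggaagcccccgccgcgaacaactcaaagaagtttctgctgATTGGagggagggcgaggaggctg
Srsf11: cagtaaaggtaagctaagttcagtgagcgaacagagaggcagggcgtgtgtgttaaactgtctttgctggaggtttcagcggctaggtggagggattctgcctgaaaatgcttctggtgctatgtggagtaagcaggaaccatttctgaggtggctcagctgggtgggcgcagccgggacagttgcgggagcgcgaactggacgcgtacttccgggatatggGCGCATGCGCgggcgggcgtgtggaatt
Gm31391: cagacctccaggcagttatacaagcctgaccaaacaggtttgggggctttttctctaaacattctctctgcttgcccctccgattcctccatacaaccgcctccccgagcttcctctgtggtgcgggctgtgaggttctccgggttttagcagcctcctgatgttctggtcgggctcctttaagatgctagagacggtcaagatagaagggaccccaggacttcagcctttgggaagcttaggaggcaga
Dhx32: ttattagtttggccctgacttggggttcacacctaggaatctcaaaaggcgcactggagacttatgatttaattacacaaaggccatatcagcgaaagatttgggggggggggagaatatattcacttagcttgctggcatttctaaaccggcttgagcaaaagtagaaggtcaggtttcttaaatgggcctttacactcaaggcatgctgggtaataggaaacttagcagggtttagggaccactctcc
AW047730: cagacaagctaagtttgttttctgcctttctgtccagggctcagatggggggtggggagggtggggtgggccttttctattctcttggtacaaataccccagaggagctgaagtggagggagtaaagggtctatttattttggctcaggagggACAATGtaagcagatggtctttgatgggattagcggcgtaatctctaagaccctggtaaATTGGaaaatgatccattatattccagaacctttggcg
The windows lie at chr1:52953351-52953600 (minus strand, 1700019D03Rik), chr2:30061746-30061995 (plus, Set, which encodes a histone chaperone), chr3:158031749-158031998 (minus, Srsf11, a splicing factor gene), chr6:72677292-72677541 (plus, Gm31391), chr7:133760270-133760519 (minus, Dhx32, a gene of the DEAH helicase family) and chr3:88198024-88198273 (plus, AW047730). The Set window holds 1 E-box (CACGTG) and 1 CCAAT box, read here as ATTGG, the Srsf11 window holds 1 NRF1 motif, and AW047730 holds 1 SOX motif (CATTGT), read as ACAATG, and 1 CCAAT box. No searched motif occurs in the other 3.

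Across the 54 windows the median GC content was 48.2% and the median number of CpG dinucleotides 4, against 52.4% and 6 in all 32817 RefSeq upstream windows of the same length. The octamer ATTTGCAT, bound by POU factors, was in 2 of 54 (3.70%, against 1.60% of all windows), and the SOX motif CATTGT in 10 (18.5% against 10.7%). The box TATAAA was in 9 (16.7% against 12.4%), CCAAT in 14 (25.9% against 33.8%), the AP-1 motif TGANTCA in 4 (7.41% against 6.75%), the KLF motif GGGTGTGG in 2 (3.70% against 3.19%), the E-box in 3 (5.56% against 6.02%) and the NRF1 motif, of the kind capitalised in the Srsf11 window, in 1 (1.85% against 3.73%). The ESRRB motif TCAAGGTCA and the STAT motif TTCCNGGAA were in 0 of the 54, and in 0.387% and 0.914% of all windows. Both strands were searched, overlaps between motifs were allowed, and a match is only a run of letters. The shares over 54 windows rest on few matches and were not tested.

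Open chromatin was seen at a minority of these enhancers on nascent DNA and at most of them 2 h later. Of the 5146, 1201 held a peak of the nascent list in their central 1 kb (23.3%, Wilson 95% interval 22.2 to 24.5%), 2754 of the 30 min list (53.5%), 3291 of the 1 h list (64.0%), 3607 of the 2 h list (70.1%) and 4284 of the steady-state list (83.2%, 82.2 to 84.2%). Each list had been made by the authors from the 3 libraries of a group combined and holds positions without heights, so the shares have no replicate error and depend on how deep each list's libraries were. The most frequent course was a peak in every list from 30 min on and none in nascent DNA, at 1384 enhancers (26.9%), followed by a peak in all 5 lists at 1137 (22.1%). A peak from 1 h on was held by 570 and from 2 h on by 360, while 483 had one only at steady state and 802 had none in the central 1 kb. Where a peak was present its median cover of the central 1 kb was 450 bp in the nascent list, 550 bp at 30 min and 700 bp at steady state.

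**Figure D1:**
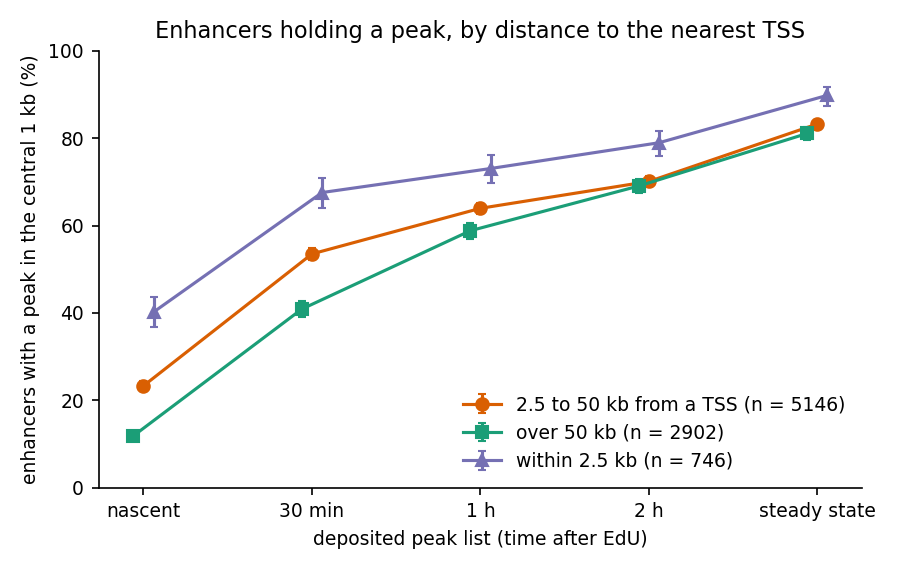
Share of enhancers (percent, vertical axis from 0 to 100) whose central 1 kb overlapped a peak, for each deposited list along the horizontal axis, with Wilson 95% intervals as bars, for enhancers 2.5 to 50 kb, over 50 kb and within 2.5 kb from a TSS. The 3 groups start at 23.3%, 11.9% and 40.2% in the nascent list and lie at 83.2%, 81.1% and 89.8% at steady state.

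Nascent peaks were less frequent with distance from genes. Enhancers over 50 kb from a TSS had a nascent peak in 11.9% (10.8 to 13.1%) and a steady-state peak in 81.1%, and those within 2.5 kb in 40.2% (36.8 to 43.8%) and 89.8%. Among the enhancers described here the nascent share was 27.7% at 2.5 to 10 kb, 22.1% at 10 to 25 kb and 20.4% at 25 to 50 kb. Just outside and just inside the limits, the nascent share was 32.6% of 129 enhancers at 2 to 2.5 kb and 22.3% of 139 at 2.5 to 3 kb, and 14.0% of 235 at 45 to 50 kb and 15.9% of 207 at 50 to 55 kb. Inside and between coding genes the nascent shares were 23.8% and 22.9%. S5P polymerase peaks from total chromatin lay in 69 of the 5146 (1.34%, 1.06 to 1.69%), and 58 of these 69 had a nascent peak. In comparison, 11.1% of the enhancers within 2.5 kb and 0.586% of those beyond 50 kb had an S5P peak.

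The enhancers with the earliest peaks were also those of highest signal in bulk DNA. The median signal in unbound DMSO DNA was 9.80 RPM (reads per mega-read of the library) in the central 1 kb for enhancers with a nascent peak. It was 5.06 RPM for those first found at 30 min, 2.93 RPM for the 1 h list, 1.82 RPM for that of 2 h, 1.26 RPM for steady state only and 0.460 RPM for those in no list. In 5 equal classes of the 5146 by this signal the nascent share was 1.26%, 5.64%, 10.5%, 28.0% and 71.3% from lowest to highest. A peak is more easily called where signal is high, and the part of this in the order of the lists was not tested.

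Of the highest enhancers by unbound signal, Dennd2a (15.8 kb upstream, chr6:39445501-39446500, 35.5 RPM) and Ftl1-ps1 (7.0 kb upstream, chr13:74399001-74400000, 34.8 RPM) had peaks from the nascent list on. So did Trim71 (20.1 kb upstream, chr9:114584001-114585000, 33.6 RPM), which also held an S5P peak. Trim71 encodes an RNA-binding ubiquitin ligase of stem cells and Dennd2a an exchange factor for Rab GTPases. The highest enhancers first found at 30 min were those near Fancc (20.1 RPM), Wdr47 and Capzb (both 19.8 RPM). The highest found only at steady state were inside Cxcl12 (4.55 RPM), which encodes a chemokine, Fgf6 (4.09 RPM) and Angpt1 (4.08 RPM). An enhancer 8.5 kb upstream of Nanog, a core pluripotency factor, was in no list and had 0.763 RPM.

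On the X chromosome few enhancers held a nascent peak, 10 of 142 (7.04%, 3.87 to 12.5%) against 23.8% of 5004 on the autosomes. The shares were 39.4% and 53.9% at 30 min, 59.9% and 64.1% at 1 h, 71.1% and 70.1% at 2 h, and 84.5% and 83.2% at steady state. S5P peaks were at 0 of the 142, which allows a share of up to 2.11%. In the same 5 classes of unbound signal the nascent counts on the X were 0 of 35, 0 of 32, 0 of 36, 2 of 27 and 8 of 12, where the autosomes had 1.31%, 5.82%, 10.9%, 28.5% and 71.4%. The mean X enhancer had 0.608 ± 0.024 (SD, n = 3) of the autosomal RPM in nascent DMSO DNA, 0.757 ± 0.0019 in 2 h DMSO DNA, and 0.702 ± 0.023 and 0.685 ± 0.0070 in the matching unbound DNA. A male line has a single X, and the TSSs of the X had 0.417, 0.488 and 0.482 of the autosomal signal in nascent DNA, 2 h DNA and the unbound DNA of the nascent stage with DMSO. The part of copy number in the share of peaks was not tested.

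Signal in the inhibitor experiment was next set against 20000 windows away from peaks, since RPM alone shifts when background reads rise. In nascent DMSO DNA the mean of the 5146 enhancers was 4.44, 4.66 and 4.38 times the background, and in 2 h DMSO DNA 25.4, 26.9 and 20.8 times. The means were 4.49 ± 0.15 and 24.3 ± 3.20 (SD, n = 3), a 5.42-fold increase with no overlap between libraries. The fold was 6.62 for enhancers over 50 kb and 3.58 for the TSSs. In unbound DMSO DNA the enhancers stood at 28.7 ± 0.71 in nascent and 28.2 ± 2.27 in 2 h samples, so that the 2 h EdU DNA reached a level 13.6% under that of unbound DNA and nascent DNA one 84.3% under it.

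**Figure D2:**
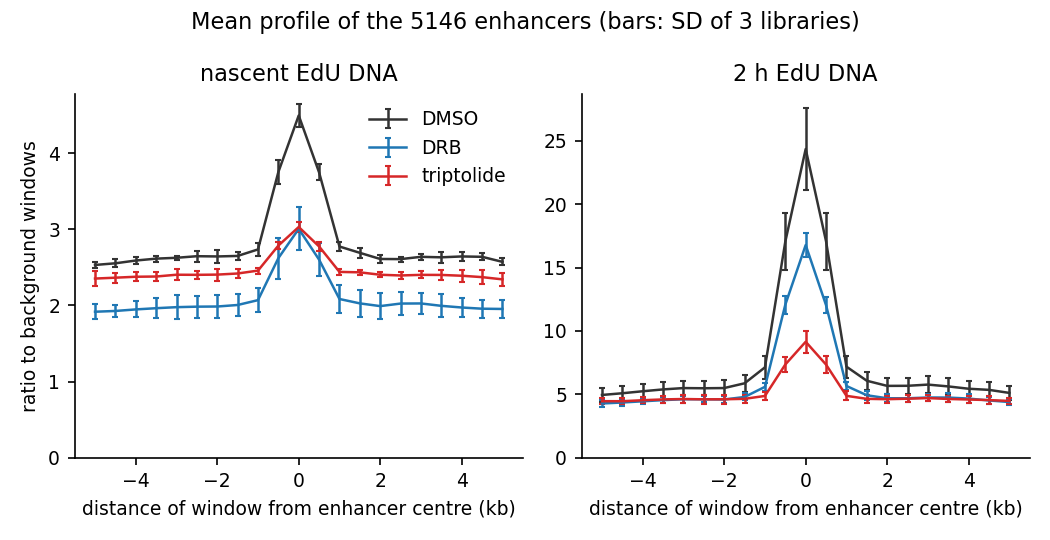
Mean signal of the 5146 enhancers as a ratio to background windows (vertical axes, from 0, with different ranges) against the distance of each 1 kb window from the enhancer centre in kb, in nascent (left) and 2 h (right) EdU DNA, with bars for the SD of 3 libraries. At the centre the nascent curves reach 4.49 with DMSO, 3.0 with DRB and 3.03 with triptolide, and the 2 h curves 24.3, 16.8 and 9.15.

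The rise was a peak at the centre and not only a wider lift. The centre exceeded the windows 3 to 5 kb away 1.73 ± 0.032 times in nascent DMSO DNA and 4.54 ± 0.10 times after 2 h, and 4.71 ± 0.042 and 4.76 ± 0.011 times in unbound DNA. With triptolide these ratios were 1.27 ± 0.019 in nascent and 2.00 ± 0.15 in 2 h EdU DNA, and with DRB 1.53 ± 0.055 and 3.70 ± 0.049 (SD, n = 3 each). The 3 libraries of each treatment did not overlap those of another at either time. The flanks themselves were above background in all groups, for example 2.53 times at 5 kb before the centre in nascent DMSO DNA and 4.96 times after 2 h.

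Most enhancers gained signal one by one between the nascent and the 2 h stage with DMSO. Of 5138 enhancers with a read in at least 3 EdU libraries, 2980 rose and 38 fell (limma, adjusted p under 0.05), where 38.5% and 1.69% of all TSSs and enhancers tested rose and fell. The median difference in log2(RPM + 1) was 1.02, against 0.51 over everything tested. Other enhancers rose at least as often. Of those over 50 kb and within 2.5 kb from a TSS 62.4% each rose, against 58.0% here, with medians of 1.12 and 1.08. Centring each library on its median took the median over everything from 0.51 to -0.06 and that of the enhancers to 0.45, with 1654 higher and 373 lower. The counts of higher and lower enhancers therefore depend on the scaling, while the median of the enhancers stayed above that of everything tested under both.

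Of the enhancers with the largest gains in log2(RPM + 1), the 4 given next had 0 to 3.17 RPM on nascent DNA, where the median enhancer had 1.15, 1.01 and 1.06 RPM in the 3 DMSO libraries. Ankle2 (2.8 kb upstream, chr5:110227501-110228500), near a gene for a nuclear envelope protein, had 1.15, 1.01 and 3.17 RPM in the nascent libraries and 22.1, 24.8 and 22.7 RPM after 2 h. The log2(RPM + 1) difference was 3.20 ± 0.31 (SE, limma adjusted p = 1.2e-15). Libraries without overlap were a condition for naming the enhancers of largest gain. Gpr158 (25.4 kb downstream, chr2:21392501-21393500), near a gene for an orphan receptor, went from 1.15, 2.02 and 0.529 RPM to 18.7, 19.4 and 17.7 RPM (3.19 ± 0.31, adjusted p = 5.6e-16). Trio (45.4 kb upstream), which encodes a guanine nucleotide exchange factor, went from 2.88, 1.01 and 0.529 RPM to 18.1, 17.6 and 20.2 RPM. On the X chromosome the enhancer 38.4 kb upstream of Tenm1 had 0, 0 and 1.59 RPM in nascent DNA and 11.3, 10.1 and 8.30 RPM after 2 h. The median enhancer had 1 to 4 reads in a nascent EdU library and 5 to 10 in a 2 h one, so low levels are known only roughly.

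The highest enhancer, Dennd2a, had 6.92, 6.06 and 5.82 RPM on nascent DNA and 46.3, 44.6 and 42.3 RPM after 2 h (2.65 ± 0.25, adjusted p = 5.2e-16). Trim71 went from 4.61, 5.05 and 6.61 to 32.8, 32.4 and 28.5 RPM (adjusted p = 1.5e-12). Zbtb45 (4.7 kb upstream), near a zinc finger gene, went from 6.92, 13.6 and 8.99 to 41.4, 39.9 and 37.3 RPM. In all 3 the libraries of the 2 stages were well apart.

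The enhancers that fell were low ones, and 33 of the 38 were in no peak list. Anln (29.4 kb downstream, chr9:22359501-22360500), near the gene of the cytokinesis protein anillin, had 1.15, 2.52 and 1.32 RPM on nascent DNA and no read in any 2 h library (adjusted p = 0.0016). A730060N03Rik (30.9 kb upstream) had 1.15, 1.01 and 0.794 RPM and then no read, and it also fell in the spike-in libraries, from 15.3 and 22.8 to 6.21 and 2.64 deposited units. Irgq (19.4 kb upstream), near an immunity-related GTPase gene, had 2.31, 1.51 and 2.38 RPM on nascent DNA and 1.23, 0 and 0.277 RPM after 2 h. The Irgq enhancer had a nascent peak and was lower at 2 h with DRB and with triptolide too (adjusted p = 0.00018 and 0.022). Background windows had 0.307 to 0.308 RPM in the nascent and 0.184 to 0.210 RPM in the 2 h DMSO libraries, and the part of this fall in the background was not tested.

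The rise followed the level and the first list. Its median was 1.57 for enhancers with a nascent peak, of which 85.8% rose. It was 1.31 for those first found at 30 min (75.4% rose), 1.07 for the 1 h list (61.7%), 0.85 for that of 2 h (49.1%), 0.40 for steady state only (21.5%) and -0.03 for those in no list (4.28%). The lists came from other libraries than the RPM values. By the 5 classes of unbound signal the medians were 0.03, 0.57, 1.03, 1.39 and 1.80. The scale of log2(RPM + 1) understates changes of low regions, and its part in this order was not tested. By distance the medians were 0.99, 1.04 and 1.02 from near to far, and enhancers between genes had 1.11 and those inside genes 0.94. The 69 enhancers with S5P had a median of 1.43, and 59 of them (85.5%) rose, against 58.0% of the 5138 and 38.5% of everything tested.

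**Figure D3:**
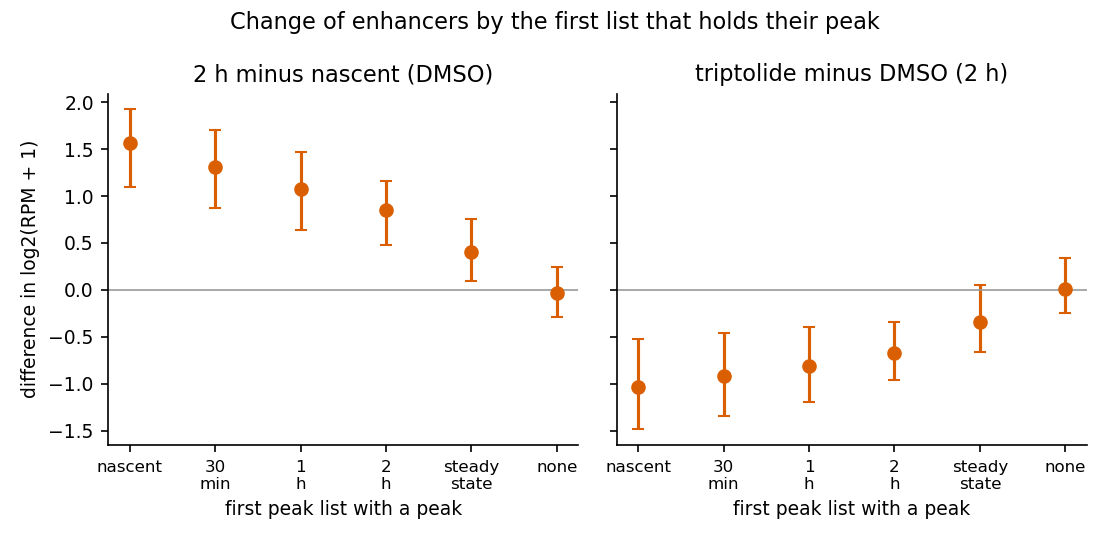
Difference in log2(RPM + 1) of enhancers grouped by the first deposited list with a peak (horizontal axes; "none" is no list), as median (points) and quartiles (bars), for 2 h minus nascent DNA with DMSO (left) and triptolide minus DMSO at 2 h (right). From the nascent group to the group in no list the medians go from 1.57 to -0.03 on the left and from -1.04 to 0.01 on the right.

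The spike-in libraries give the rise on a second scale. Over 5144 enhancers, taken as whole 5 kb regions, the median difference was 1.30 in deposited log2 units, against 0.94 over everything tested, with 2598 higher and 13 lower (37.3% and 1.33% of everything tested). Other enhancers rose more often. Of those over 50 kb and within 2.5 kb from a TSS 59.2% and 69.6% rose, against 50.5% here, with medians of 1.61 and 1.62. Gpr158 had 17.5 and 13.7 units in nascent and 231 and 196 in 2 h libraries, and the region upstream of Cyp2c69 (3.5 kb), a cytochrome P450 gene, 6.55 and 4.55 and then 108 and 106. With 2 libraries a group the calls were unstable: 0 were called without replicate 1 or without replicate 2 of the 2 h group, and 4092 rose without replicate 2 of the nascent group. With centring on the library median 1799 rose and 700 fell, and the median became 0.29. Of the 2980 enhancers that rose in the DMSO libraries 2118 also rose here (71.1% of the former and 81.5% of the latter). How S2 reads entered these values was not given in the sources used here.

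In unbound DNA no enhancer was called different between the DMSO samples of the 2 stages. Limma called 0 of 5141 higher or lower (0% of everything tested), with 312 at an unadjusted p under 0.05 and a median difference of 0.02, and the other settings tried, limma-voom included (248 at an unadjusted p under 0.05), called 0 as well.

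Enhancer signal 2 h after replication was lower with triptolide than with DMSO. The ratio to background was 9.60, 9.70 and 8.14 in the 3 triptolide libraries against 25.4, 26.9 and 20.8 with DMSO, which is 62.4% lower with no overlap. It was 61.3% lower at the TSSs. Of 5138 enhancers 2187 were lower and 124 higher (limma), where 32.7% and 2.76% of everything tested were lower and higher, and the median difference was -0.68 against -0.40 over everything. Of the enhancers over 50 kb and within 2.5 kb from a TSS 46.2% and 50.7% were lower, against 42.6% here, with medians of -0.75 and -0.82. With centring on the library median the median of everything went from -0.40 to 0.12 and that of the enhancers to -0.17, with 866 lower and 500 higher.

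**Figure D4:**
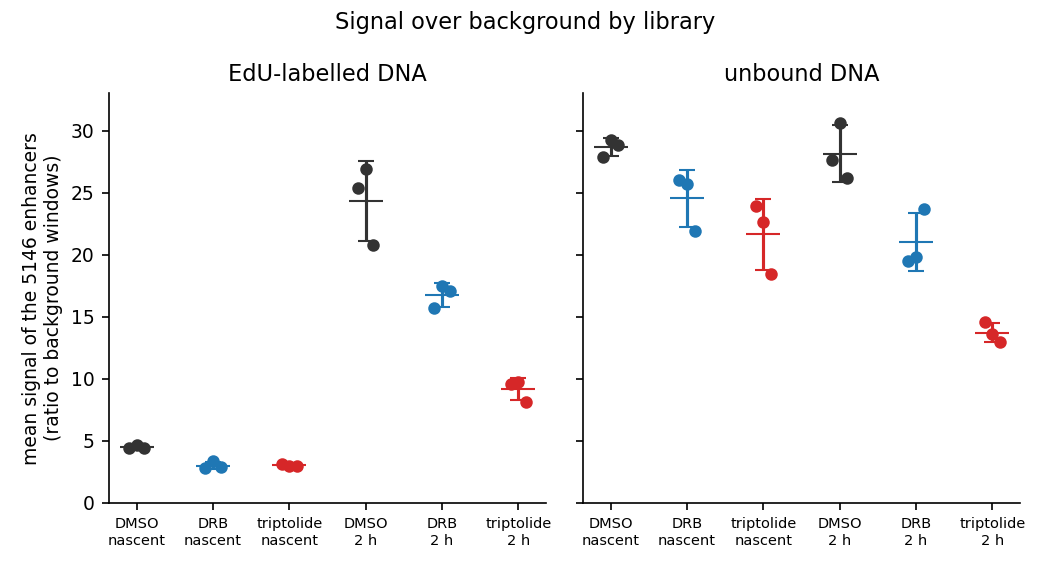
Mean signal of the 5146 enhancers in each library as a ratio to background windows (vertical axis, from 0), for EdU-labelled (left) and unbound DNA (right), by treatment and stage along the horizontal axes, with points for libraries, dashes for means and bars for SD (n = 3). In 2 h EdU DNA the triptolide libraries lie between 8.14 and 9.70 and the DMSO libraries between 20.8 and 26.9, and in unbound DNA at 2 h the means are 13.7 and 28.2.

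Among the enhancers that lost most was the one near Ftl1-ps1, a ferritin pseudogene. Its nascent DMSO level of 5.19, 3.53 and 4.23 RPM grew to 28.2, 33.1 and 31.0 RPM at 2 h with DMSO but only 2.30, 6.21 and 3.72 RPM with triptolide. The log2(RPM + 1) difference between the treatments was -2.71 ± 0.30 (SE, adjusted p = 4.4e-13). Cops5 (6.2 kb downstream, chr1:10031501-10032500), near the gene of the catalytic subunit of the COP9 signalosome, had 14.4, 7.91 and 10.5 RPM with DMSO and 0.576, 1.55 and 0.532 RPM with triptolide. Selenok (17.5 kb upstream), which encodes a selenoprotein of the endoplasmic reticulum, had 12.3, 14.7 and 12.2 RPM and then 1.44, 0.931 and 1.33 RPM. Cyp2c23 (20.2 kb upstream) had 9.81, 7.91 and 5.25 RPM and then 0.288, 0.310 and 0.266 RPM. An enhancer at chr10:100164001-100165000, over 50 kb from a named TSS, had the largest fall, from 15.0, 18.3 and 11.1 to 2.02, 1.86 and 0.266 RPM (-2.81 ± 0.33). In each of these 5 the treatments did not overlap, which the rule for naming the enhancers of largest change required.

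By level, the loss with triptolide was largest in the highest of the 5 classes of unbound signal, with a median of -1.31 and 848 of 1029 lower. The scale of log2(RPM + 1) understates changes of low regions here too, and its part in this was not tested. The highest enhancers varied among themselves, with Ftl1-ps1 among those that lost most. Dennd2a had 24.2, 21.7 and 19.7 RPM with triptolide against 42.3 to 46.3 with DMSO (-0.99, adjusted p = 0.00091). Trim71 had 16.1, 16.8 and 13.0 RPM against 28.5 to 32.8 (adjusted p = 0.0017). Zbtb45 had 10.9, 12.1 and 11.4 RPM against 37.3 to 41.4 (adjusted p = 4.1e-08). Of the windows shown above with an RNA start, the Set enhancer differed by -2.29 and that of Dhx32 by -1.98 between triptolide and DMSO at 2 h.

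A small set went the other way. Inside Kazn, which encodes the periplakin-binding protein kazrin, an enhancer 7.4 kb downstream of the start (chr4:142231501-142232500) had 0.920, 0.719 and 1.38 RPM with DMSO and 6.91, 5.59 and 7.71 RPM with triptolide (1.95 ± 0.33, adjusted p = 6.7e-07). Its neighbour at chr4:142167501-142168500 had 1.23, 1.44 and 0.277 and then 4.61, 7.76 and 7.98 RPM. Upstream of Klf5 (26.0 kb, chr14:99272001-99273000), a Krüppel-like factor of the pluripotency network, the levels were 0.307, 0 and 0.277 with DMSO and 4.03, 3.72 and 2.66 RPM with triptolide (1.90 ± 0.37, adjusted p = 1.8e-05). Srp9 (25.6 kb upstream), for a subunit of the signal recognition particle, had 0.307, 0.719 and 1.66 and then 4.03, 5.28 and 5.58 RPM. All of these were low with DMSO, and the 5 classes of unbound signal from lowest to highest had 71, 45, 8, 0 and 0 enhancers that were higher with triptolide and 75, 217, 413, 634 and 848 that were lower. Background windows had 0.232 to 0.244 RPM with triptolide and 0.184 to 0.210 RPM with DMSO at 2 h, and the part of the background in these rises was not tested.

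The loss with triptolide also went with the first list. The median difference was -1.04 for enhancers with a nascent peak (63.9% lower), -0.92 for those first found at 30 min (53.7%), -0.82 for the 1 h list (44.6%), -0.67 for that of 2 h (34.6%), -0.35 for steady state only (17.2%) and 0.01 for those in no list (5.54%). These comparisons share their DMSO 2 h libraries with the rise described above. They also share the scale of log2(RPM + 1), whose part in this order was not tested. Of the 69 enhancers with S5P, 43 were lower, where 42.6% of the 5138 and 32.7% of everything tested were lower.

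The mean rise itself was smaller with triptolide, though few single enhancers were called. As a ratio to background it was 3.02-fold with triptolide and 5.42-fold with DMSO, and 2.47-fold and 3.58-fold at the TSSs. The change from nascent to 2 h DNA differed between triptolide and DMSO at 124 of 5138 enhancers, smaller at 122 and larger at 2 (limma interaction), where 1.18% and 0.0518% of everything tested differed so. The median of the difference was -0.49, against -0.21 over everything, and about the size of the median SE of an enhancer (0.496). The difference was above 0 at 23.5% of the enhancers and 35.0% of everything tested. Of the enhancers over 50 kb and within 2.5 kb from a TSS 3.32% and 3.36% had a smaller rise, against 2.37% here. Their medians were -0.56 and -0.43. Tnip3 (6.8 kb downstream), near a gene of an NF-kB regulator, had 0.695, 1.81 and 0.540 RPM on nascent and 0.864, 1.55 and 0.798 RPM on 2 h DNA with triptolide (difference of changes -2.57 ± 0.49, adjusted p = 0.00078). The count is sensitive to single libraries, with 122 smaller rises becoming 69 and 68 without replicate 2 or 3 of nascent triptolide, 46, 31 and 67 without replicate 1, 2 or 3 of 2 h DMSO and 37 without replicate 3 of 2 h triptolide. Smaller and larger together, it was 22 with a pseudocount of 0.5, 13 with centring (11 smaller and 2 larger), 14 with limma-voom (12 and 2) and 752 with scaling to background windows. In the triptolide libraries alone 1202 enhancers still rose and 9 fell (17% and 0.363% of everything tested), with a median of 0.47 against 0.29.

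On nascent DNA the signal was lower with triptolide as well. The ratio to background was 3.10, 2.99 and 3.0 against 4.44, 4.66 and 4.38 with DMSO, 32.6% lower without overlap, and 43.9% lower at the TSSs. At single enhancers 257 were lower and 16 higher (9.55% and 0.394% of everything tested), with a median of -0.18 against -0.21 over everything, so the share of enhancers that fell was below that of everything tested. Rdh10 (24.6 kb downstream, chr1:16130001-16131000), which encodes a retinol dehydrogenase, had 4.04, 7.07 and 5.03 RPM with DMSO and 0.695, 1.81 and 0.900 RPM with triptolide (-1.59 ± 0.29, adjusted p = 5.6e-05). Gnas (3.7 kb downstream), for the stimulatory G protein alpha subunit, had 2.31, 4.04 and 3.70 and then 0.348, 0 and 0.900 RPM. Ndufs6 (17.8 kb upstream), for a subunit of respiratory complex I, had 3.46, 9.59 and 5.55 and then 1.39, 1.36 and 1.08 RPM. The Klf5 enhancer 26.0 kb upstream was higher at this stage too, with 2.09, 2.26 and 2.16 RPM against 0.577, 0 and 0.529, as was Mir3093 (the AW047730 window above), with 2.43, 2.26 and 2.52 against 0, 0.505 and 0.529 RPM. The number that fell was 155 without replicate 2 of DMSO, and 150 and 134 without replicate 1 or 2 of triptolide, and with centring 46 fell and 42 rose. Fitting only the groups compared left 9 calls in all.

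With DRB the 2 h signal lay between those of triptolide and DMSO. The ratio to background was 15.7, 17.5 and 17.1 with DRB against 20.8 to 26.9 with DMSO, 31.1% lower without overlap. At single enhancers 119 were lower and 8 higher (1.1% and 0.231% of everything tested), with a median of -0.26 against -0.13. Leaving out any of the 6 libraries lowered the 127 calls to between 15 and 63, and with only the compared groups in the fit 0 were called (1238 at an unadjusted p under 0.05). With centring 21 were lower and 10 higher. Cdc25b (11.5 kb downstream), for a phosphatase that starts mitosis, had 3.98, 4.68 and 3.6 RPM with DMSO and 0, 0.746 and 0.580 RPM with DRB (-1.85 ± 0.38, adjusted p = 0.0025). Tgm2 (7.5 kb upstream), a transglutaminase gene, had 8.28, 6.11 and 4.70 and then 0.437, 0.746 and 2.32 RPM. Higher with DRB were Isg20 (5.4 kb downstream), an interferon-stimulated exonuclease gene, at 6.12, 10.8 and 8.99 RPM against 2.15, 2.88 and 3.87, and the Kazn enhancer at 3.06, 5.60 and 2.61 against 0.719 to 1.38 RPM. Dennd2a had 49.4, 42.5 and 44.1 RPM with DRB, of which 2 lay within the range of its DMSO libraries and 1 above it (difference 0.03).

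The rise from nascent to 2 h with DRB was called at 2733 enhancers, with 27 that fell (39.9% and 1.76% of everything tested), and its median was 0.91 against 0.56, while with centring 1467 rose and 427 fell. It differed from the rise with DMSO at 1 enhancer, near Gm23518 (0% of enhancers larger and 1 smaller, against 0.0104% and 0.013% of everything tested), and 441 had an unadjusted p under 0.05. That call was lost without replicate 2 of 2 h DRB, and limma-voom called 0. On nascent DNA DRB gave 2.83, 3.33 and 2.86 times the background, 33.1% below DMSO without overlap. There 96 enhancers were lower and 3 higher (2.82% and 0.223% of everything tested), 47 lower and 2 higher without replicate 2 of DMSO, 28 lower and 6 higher with centring, 1 lower and 1 higher with limma-voom, and 0 when only the compared groups were fitted (425 at an unadjusted p under 0.05). Brd1 (25.2 kb downstream, chr15:88708501-88709500), near a gene of a histone acetylation complex and with an S5P peak, had 9.80, 4.54 and 6.88 RPM with DMSO and 1.42, 1.54 and 1.81 RPM with DRB (-1.59 ± 0.28, adjusted p = 0.00022).

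Unbound DNA, which is mostly not newly made, showed lower enhancer signal with both inhibitors too. At 2 h triptolide gave 14.6, 13.6 and 13.0 times the background against 27.6, 30.7 and 26.2 with DMSO, 51.3% lower, where the TSSs were 33.4% lower. Enhancers over 50 kb and within 2.5 kb from a TSS were 48.6% and 49.0% lower, close to those described here. Of 5141 enhancers 2368 were lower and 49 higher (20.4% and 2.49% of everything tested), with a median of -0.47 against -0.12 over everything and -0.06 over the TSSs. With centring 1511 were lower and 224 higher, with a median of -0.25 against 0.11. Of the 2187 enhancers lower in 2 h EdU DNA 1684 were also lower here (77% of the former and 71.1% of the 2368). The 2 fractions come from the same pulldowns but are separate libraries. Enhancers were also paired with the nearest named TSS at any distance (5134 pairs), which does not show that the enhancer acts on it. Of all the enhancers described here 696 had that TSS over 50 kb away, and the same TSS can be in several pairs. Over the pairs the medians were -0.09 at the TSS and -0.47 at the enhancer. The TSS was lower in 723 pairs, the enhancer in 2366 pairs and both in 352 pairs. Across pairs the 2 differences had a Pearson r of 0.06, as a description.

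Rap1gap (5.0 kb upstream, chr4:137659001-137660000), for an inactivator of the GTPase Rap1, had 13.7, 14.8 and 15.4 RPM in unbound DMSO DNA and 3.91, 2.52 and 2.47 RPM with triptolide (-1.99 ± 0.15, adjusted p = 1.5e-13). Mmp20 (5.9 kb downstream), for the enamel protease, had 18.9, 18.3 and 18.6 and then 4.84, 4.54 and 4.01 RPM. Nkx6-3 (9.9 kb downstream), a homeobox gene, had 17.9, 16.1 and 13.9 and then 4.95, 3.78 and 2.31 RPM. Isg20 was higher, with 4.84, 6.30 and 6.02 RPM against 2.2, 2.64 and 2.66, and so was Atf3 (6.8 kb upstream), a stress-induced transcription factor gene, with 6.91, 7.06 and 4.86 against 3.11, 3.12 and 2.43 RPM. Each of these 5 was without overlap, which the rule for naming the enhancers of largest change required.

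With DRB at 2 h 514 enhancers were lower in unbound DNA and 40 higher (2.73% and 1.07% of everything tested), with a median of -0.22 against -0.03. Of the enhancers over 50 kb and within 2.5 kb from a TSS 5.73% and 9.83% were lower, against 10.0% here. Ucp2 (8.9 kb downstream, with S5P), for a mitochondrial carrier, had 11.1, 12 and 10.8 RPM with DMSO and 3.6, 4.01 and 3.93 RPM with DRB (adjusted p = 1.6e-05). Atf3 was higher with 7.94, 6.50 and 9.10 RPM, and Gbp5 (3.1 kb upstream), an interferon-induced GTPase gene, with 13.9, 13.4 and 14.9 against 5.96, 7.93 and 5.25 RPM. The number lower was 292, 206 and 268 without replicate 1, 2 or 3 of DMSO, 287 and 277 without replicate 1 or 2 of DRB and 332 with centring (65 higher). In the samples collected at the nascent stage triptolide gave 464 lower and 20 higher (3.12% and 0.836%), but 97 and 10 without replicate 3 of triptolide and 268 and 8 without replicate 2 of DMSO. Neat1 (4.0 kb downstream, with S5P), a long noncoding RNA gene, had 6.88, 11.1 and 8.35 RPM with DMSO and 3.64, 2.46 and 2.23 RPM with triptolide. With DRB at that stage 18 were lower and 21 higher (0.524% and 0.286%), 55 and 14 with scaling to background, 60 and 13 with limma-voom, and 1 to 3 lower and 5 to 7 higher without replicate 2 of DMSO or any replicate of DRB.

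The enhancers were next grouped by the nearest gene. The counts of each group stand against 58.0% of the 5138 enhancers and 38.5% of everything tested that rose with DMSO, and 42.6% and 32.7% that were lower with triptolide at 2 h. No group was tested as such. Near 15 of 22 pluripotency transcription factors lay 21 of the enhancers, 9 with a nascent peak and 15 with a steady-state peak. With DMSO 8 of the 21 rose after replication and 0 fell (median 0.60, against 1.02 for the 5138 tested), but with centring 6 rose and 3 fell (median 0.03). At 2 h 1 was lower with triptolide and 3 were higher (median 0.23), but with scaling to background windows 4 were lower and 3 higher (median 0.01) and with centring 1 and 9. In unbound DNA 8 were lower and 0 higher, though with centring 2 were lower and 4 higher. Sox2 (18.6 kb downstream), for a core pluripotency factor, went from 4.04, 4.04 and 5.55 to 12.9, 13.3 and 11.6 RPM, and had 8.64, 10.2 and 11.2 RPM with triptolide (-0.31, adjusted p = 0.45). Zfp42 (13.9 kb upstream), a marker gene of naive stem cells, went from 5.19, 2.52 and 3.17 to 24.2, 28.4 and 22.1 RPM, against 18.1, 15.5 and 12.8 RPM with triptolide (-0.66, adjusted p = 0.051). Klf2 (15.1 kb downstream), for another Krüppel-like factor, was the 1 that passed, with 22.4, 16.5 and 15.8 RPM against 6.91, 8.07 and 4.52 (-1.37, adjusted p = 0.00018).

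The 2 enhancers of Klf5 went apart. The one 26.2 kb downstream had 21.2, 19.8 and 15.5 RPM at 2 h with DMSO and 15.0, 14.6 and 16.8 RPM with triptolide (-0.26, adjusted p = 0.51), while the one 26.0 kb upstream rose, as given above. The other 2 that were higher with triptolide were Zfp281 (40.7 kb upstream), for a zinc finger factor, with 5.47, 4.97 and 5.85 RPM against 1.23, 2.16 and 2.21, and Prdm14 (3.0 kb upstream), for a germ line and naive state factor, with 1.73, 4.66 and 2.13 against 0.613, 0.719 and 0.277 RPM. The Zfp281 and Prdm14 enhancers were chosen after their values were seen.

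**Figure D5:**
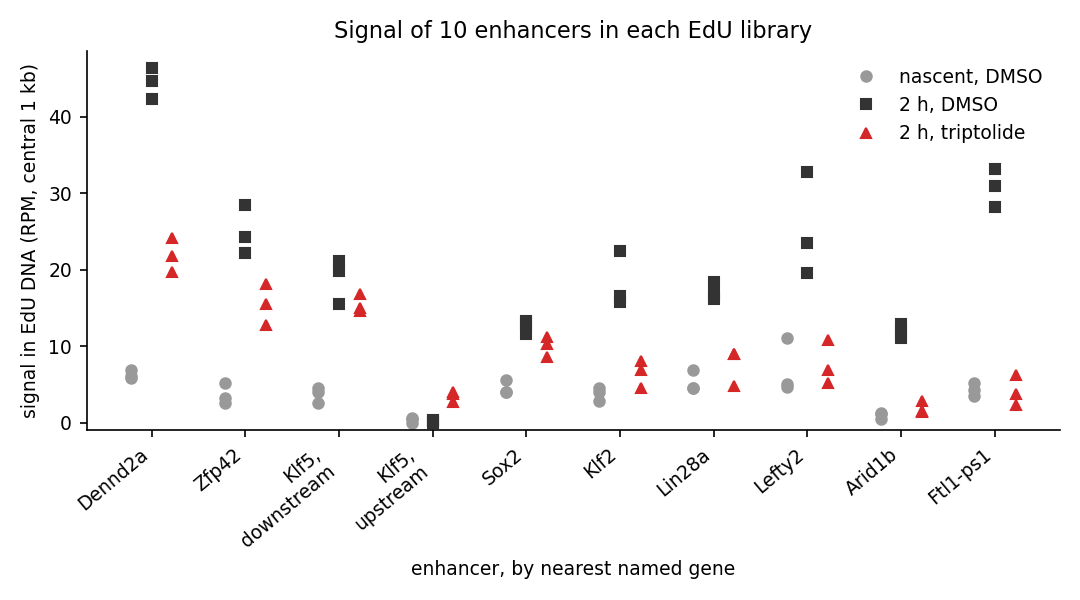
Signal in RPM (linear vertical axis) in the central 1 kb of 10 enhancers named in the text, in the 3 libraries each of nascent DMSO (circles), 2 h DMSO (squares) and 2 h triptolide EdU DNA (triangles). Klf5 upstream is the only one of the 10 with its triptolide points (2.66 to 4.03 RPM) above its DMSO points at 2 h (0 to 0.307 RPM).

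Stem cell marker genes had 10 enhancers near them, of which 5 rose with DMSO (4 with centring) and 2 were lower with triptolide at 2 h and 0 higher (1 and 0 with centring, where the median went from -0.06 to 0.46). These 2 were Lin28a (7.0 kb downstream), for an RNA-binding protein that blocks let-7, at 18.4, 16.2 and 16.9 RPM against 8.93, 9.0 and 4.79, and Fgf4 (3.5 kb upstream), for a growth factor that stem cells secrete, at 12.3, 16.2 and 9.96 against 4.32, 4.97 and 2.66 RPM. Cdh1 (15.9 kb downstream), for E-cadherin, had 12.3, 13.7 and 12.7 against 9.22, 10.6 and 10.4 RPM (-0.33, adjusted p = 0.41). Of 7 enhancers near genes of LIF and STAT3 signalling, the pathway that LIF feeds, 3 rose and 1 (Socs2) fell with DMSO (2 and 1 with centring), and 2 were lower with triptolide, against 0 lower and 1 higher with centring. These were Pim1 (39.4 kb upstream), a survival kinase gene, at 30.3, 30.2 and 35.1 against 15.6, 14.6 and 12.5 RPM, and Jak2 (33.9 kb downstream), for the kinase of the receptor, at 8.28, 8.99 and 6.36 against 3.74, 5.59 and 2.39 RPM.

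Of 13 enhancers near Wnt pathway genes 8 rose with DMSO (6, and 1 that fell, with centring) and 7 were lower with triptolide at 2 h, with 0 higher and a median of -1.08 (against -0.68 for the 5138); with centring 5 were lower and 1 higher. Among the receptors, Fzd5 (4.5 kb downstream) had 21.8, 18 and 13.0 RPM with DMSO and 4.90, 4.97 and 2.93 RPM with triptolide, and Fzd7 (33.4 kb upstream) 11.3, 7.55 and 11.1 and then 2.88, 3.10 and 2.93 RPM. Of the nuclear effectors, Lef1 (25.6 kb upstream) had 7.97, 10.8 and 13.8 and then 2.59, 1.24 and 2.39 RPM (-1.95, adjusted p = 7.1e-07). Of 12 enhancers near genes of Nodal and BMP signalling 7 rose and 0 fell (3 and 1 with centring), and 4 were lower and 0 higher with triptolide, against 2 lower and 5 higher with centring. Lefty2 (4.1 kb upstream), for a Nodal antagonist, had 19.6, 32.7 and 23.5 RPM with DMSO and 5.18, 10.9 and 6.91 RPM with triptolide, and Id2 (28.8 kb upstream), for a target of BMP signalling, 15.0, 15.5 and 13.3 and then 3.17, 3.41 and 3.72 RPM. In contrast Tgif1 (24.3 kb downstream, with S5P), for a repressor of SMADs, had 9.50, 8.63 and 6.08 and then 7.2, 13.3 and 12 RPM (0.36, adjusted p = 0.39).

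FGF and ERK signalling genes had 14 enhancers, of which 9 rose and 0 fell with DMSO (8 and 1 with centring), and 4 were lower and 2 higher with triptolide, against 1 and 2 with centring and 7 and 2 with scaling to background. Sos1 (17.0 kb upstream), for a Ras exchange factor, had 12.3, 18 and 9.13 RPM with DMSO and 4.61, 4.35 and 2.93 RPM with triptolide. Spry2, for a feedback inhibitor, had 3 enhancers: the one 24.3 kb upstream was lower (15.9, 15.8 and 15.8 against 8.64, 6.52 and 11.7 RPM), the one 4.4 kb upstream did not pass (-0.45, adjusted p = 0.24), and the one 40.5 kb downstream was higher (0.307, 0.360 and 0 against 3.17, 1.86 and 2.66 RPM). Near developmental regulators that Polycomb silences in these cells lay 15 enhancers, 2 of them with a nascent and 10 with a steady-state peak, and 8 rose and 0 fell with DMSO (3 and 2 with centring) while 6 were lower and 0 higher with triptolide (3 and 1 with centring). Nkx6-1 (48.2 kb upstream) had 13.8, 11.5 and 11.1 RPM with DMSO and 2.59, 1.55 and 1.86 RPM with triptolide, and En1 (41.8 kb downstream), for another homeobox factor, 14.1, 14.0 and 16 and then 4.61, 6.52 and 2.93 RPM.

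Genes of chromatin remodelling and DNA methylation had 16 enhancers, with 10 that rose and 0 that fell (7 and 1 with centring), and 7 lower and 0 higher with triptolide (4 and 2 with centring). Arid1b (45.7 kb upstream), for a subunit of the BAF remodeller, had 12.9, 11.9 and 11.1 RPM with DMSO and 2.88, 1.55 and 1.33 RPM with triptolide (-2.18, adjusted p = 8.6e-08). Of 6 enhancers near immediate early genes 4 rose (2 with centring) and 2 were lower with triptolide (1 lower and 1 higher with centring), Ccn2 (4.6 kb upstream), for a matricellular protein, at 15.0, 21.6 and 12.7 against 6.34, 4.66 and 5.85 RPM, and Klf6 (17.4 kb downstream), for a Krüppel-like factor, at 5.52, 5.75 and 3.04 against 1.15, 1.86 and 1.60 RPM. Few enhancers lay near genes of replication and the cell cycle (5, of which 1 rose and 2 were lower with triptolide, with 0 of either under centring) or of ribosomes and translation (3, of which 2 rose and 2 were lower, 1 and 1 with centring). Rps19 (4.7 kb upstream), for a ribosomal protein, had 14.7, 11.5 and 14.7 and then 2.88, 2.48 and 3.99 RPM.

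The label of the cells was set against markers at promoters, where peaks alone did not set stem cell markers apart from most other lists. A steady-state peak lay at the TSS of 5 of 6 embryonic stem cell markers, 7 of 11 primitive endoderm, 7 of 7 trophectoderm, 6 of 10 fibroblast, 12 of 12 neural and germ layer and 0 of 7 markers of the 2-cell-like state. Median unbound signal was 9.13 RPM for the stem cell markers and 2.47 to 3.96 RPM for the other lists save the 2-cell-like one, at 0.0819 RPM. Libraries held 1.30 to 5.55 M reads in EdU and 2.35 to 14.4 M reads in unbound DNA. Between replicates the log2 values of all TSSs and enhancers tested had a Pearson r of 0.478 to 0.737 on nascent, 0.845 to 0.937 on 2 h and 0.946 to 0.981 on unbound DNA. This is a description over regions that are mostly TSSs.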

How the data were processed

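Trim Galore 0.4.2, Bowtie2 2.2.6.2 and the build mm10 are named in the submitters' processing notes, and a peak caller was not given in the sources used here. Deposited peak lists give positions alone, and the authors combined the replicates of a group into 1 list. The deposited inhibitor table holds log2(RPM + 1) per 1 kb window every 500 bp, per the file headers, while spike-in values, log2 as deposited, are of 5 kb regions that are not plain RPM. RPM was regained by undoing the log2, and 100% of the values of each inhibitor library came out as whole reads (tolerance 0.1 read).

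Each enhancer was measured in the 1 kb window nearest its centre (spike-in: the 5 kb region). A peak counted when it overlapped this window by at least 1 bp. TSSs and enhancers with signal in 3 libraries or more (2 of the spike-in ones) were tested together on the log2 values with limma 3.58.1 in R 4.3.3 (moderated, with a trend, two-sided), with all 18 libraries of a fraction in 1 fit, Benjamini-Hochberg adjustment over all of them and a threshold of 0.05. Background was 20000 random windows at least 1000 bp from peaks. Wilson intervals treat enhancers as independent draws set against 1 combined list, so they cover no error between reads or libraries. Reads without molecular identifiers are not independent molecules. The test was checked on simulated data, where it missed most 2-fold changes and found most 4-fold ones. Those changes were placed only in regions above the median signal, so the check does not cover low regions. A region that was not called can thus still have changed.

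The members and the gene lists were chosen with earlier results of these data known. Named were, per comparison, up to 8 enhancers with the largest rise and 8 with the largest fall among those past the threshold with no overlap between groups, the 4 highest of each gene list by unbound DMSO signal, the 8 highest of all, the 3 highest by first peak list and with S5P, and a few named for a count; some of these are not reported here. Upstream sequences were taken from RefSeq. Alternatives were a 3 kb window, another pseudocount, no filter, centring, scaling to background, limma-voom on the recovered read counts (counts made here from the deposited log2 values), only the groups compared, a replicate block and leaving out each library. Samples were not treated as paired by replicate number. The correlation of deviations between same-numbered libraries was -0.023 to 0.048 in EdU and -8.4e-05 to 0.15 in unbound DNA, where replicate 1 had 0.13 to 0.15. Differently numbered libraries were not set beside these, so a weak pairing was not tested. No column was left out.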

Additional observations from a re-analysis of the deposited data

Results flagged for a closer look

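A difference between treatments in the change from nascent to 2 h DNA was tested by an interaction term in limma. Between triptolide and DMSO it was found at 124 of the enhancers described above. Those with the largest differences in log2(RPM + 1) were Tnip3 (-2.57), Gm23118 (-2.51), Saysd1 (-2.49), Gcsh (-2.46), Pgrmc2 (-2.42), Gm25634 (-2.34), Sh3gl2 (-2.33) and Gm23851 (-2.33), where the rise was smaller with triptolide. At Gcsh (23.7 kb upstream), for a protein of glycine cleavage, the triptolide libraries had 2.09, 2.72 and 1.26 RPM on nascent and 2.59, 0.931 and 0.798 RPM on 2 h DNA. The rise was larger with triptolide at Sap18b (1.83).

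Between DRB and DMSO the change differed at 1 enhancer, 17.0 kb upstream of Gm23518 (-2.43), which had 0.946, 2.31 and 0.302 RPM on nascent and 0.437, 0 and 0.580 RPM on 2 h DNA with DRB. These levels are a few reads a library.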

How the results depend on the processing

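Centring on the library median moved the median over everything tested by more than 0.1 (values above) and gave counts of 594 for the rise with triptolide, 13 and 34 for the triptolide interaction and nascent DRB, 31 for 2 h DRB, 88 for nascent and 1366 for 2 h triptolide. Below, counts are of enhancers called in either direction. The main counts were 124 (triptolide interaction), 1 (DRB interaction), 99 and 127 (nascent and 2 h DRB), and 39 and 554 (the same in unbound DNA). The others are the sums of the higher and lower counts given above.

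With 3 kb windows they were 457, 5, 167 and 516, and 114 for nascent DRB in unbound DNA. Limma-voom gave 14, 0, 2 and 373, and in unbound DNA 73 (nascent DRB) and 899 (nascent triptolide). Without a filter they were 45, 0, 55 and 37, then 24, 325 and 250 in unbound DNA, and 0 for the spike-in. With only the compared groups fitted the DRB interaction, both DRB comparisons and nascent DRB in unbound DNA gave 0, nascent triptolide 9, and unbound DNA 306 (2 h DRB) and 15 (nascent triptolide). A pseudocount of 0.5 gave 22 for the triptolide interaction and 12 for 2 h DRB. Scaling to background gave 2044 for the rise with triptolide, 752 for its interaction, 647 for 2 h DRB and 69 for nascent DRB in unbound DNA.

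The replicate block gave 77 for nascent DRB in unbound DNA and 962 for the spike-in, and left the other counts within 1.5 times. Same-numbered libraries were not treated as paired (values in the processing account), and whether a call lost with the block is a weaker effect was not tested.

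Peak shares from nascent to steady state were 33.2%, 62.9%, 74.1%, 80.6% and 91.4% over the whole 5 kb (S5P 3.52%), 10.1%, 33.4%, 41.8%, 49.9% and 65.9% with 500 bp required (S5P 0.291%), and 21.4%, 50.5%, 60.6%, 66.6% and 78.7% by peak midpoint. Ratios to background for DMSO, DRB and triptolide were 3.33, 2.39 and 2.64 (nascent), 12.9, 9.35 and 6.31 (2 h), 15.1, 13.1 and 12 (unbound, nascent) and 14.7, 11.4 and 8.15 (unbound, 2 h) over 3 kb. With the median in place of the mean they were 3.49, 2.51 and 2.32, then 15.7, 10.3 and 6.40, then 19.0, 16.6 and 14.2, and 18.9, 13.7 and 9.28.

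Leaving out 1 library gave 2693 to 2824 (rise with DMSO), 2472 to 2583 (DRB), 812 to 1018 (triptolide), 31 to 129 and 0 to 1 (interactions with triptolide and DRB), 143 to 214 and 1781 to 2055 (nascent and 2 h triptolide), 49 to 146 and 15 to 63 (nascent and 2 h DRB) and 0 to 4103 (spike-in). In unbound DNA it gave 6 to 44 and 231 to 402 (DRB) and 107 to 426 and 2007 to 2274 (triptolide). The ratios for DMSO, DRB and triptolide became 4.41 to 4.55, 2.84 to 3.09 and 2.99 to 3.05 (nascent), 23.1 to 26.1, 16.4 to 17.3 and 8.87 to 9.65 (2 h), 28.4 to 29.1, 23.8 to 25.9 and 20.5 to 23.3 (unbound, nascent), and 26.9 to 29.1, 19.7 to 21.8 and 13.3 to 14.1 (unbound, 2 h).

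Of named enhancers 3 reversed, all with 3 kb windows. Eif4e2 (0.82, 2 h minus nascent with DMSO) and chr8:44969501-44970500 (0.84, 2 h minus nascent with DRB) had fallen in the main setting. Slco4c1 (-0.45, DRB minus DMSO on nascent DNA) had been higher in it. The cause was not tested. Of 198 named calls 112 held in every run without 1 library. Depth also limits single enhancers at the nascent stage, where the median enhancer had 1 to 4 reads in an EdU library.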
